A study of Mus musculus with 20 samples.

Results

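The 10 genes described here control how pyruvate enters mitochondrial metabolism: 4 kinases (Pdk1, Pdk2, Pdk3, Pdk4) and 2 phosphatases (Pdp1, Pdp2) of the pyruvate dehydrogenase complex, both subunits of its first enzyme (Pdha1, Pdhb), and both subunits of the mitochondrial pyruvate carrier (Mpc1, Mpc2). They were chosen by name, through the RefSeq accession of each array probe, and all 10 were found among the 24250 transcripts and genes that could be tested. The study followed mouse embryonic fibroblasts of a Balb/c background in actinonin, a hydroxamic acid antibiotic that inhibits peptide deformylase and is known to disturb mitochondrial protein synthesis in mammalian cells. Cells received actinonin at 150 µM for 6 h, 24 h, 48 h or 72 h, and the reference cells received the ethanol carrier at 3 µl/ml, with no actinonin. Each of these 5 groups held 4 samples, 2 labelled with Cy3 and 2 with Cy5, and all were grown in medium with serum and uridine and collected near confluence. Each sample pooled RNA from 4 plates, so the spread between plates cannot be seen. The carrier samples are titled 0 h and the labels do not say when they were collected, so time in culture and time in actinonin cannot be told apart.

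Pyruvate made by glycolysis crosses the inner mitochondrial membrane through a carrier built of MPC1 and MPC2, and the pyruvate dehydrogenase complex then converts it to acetyl-CoA. The kinases switch the complex off by phosphorylating the E1 alpha subunit that Pdha1 encodes, and the phosphatases remove the phosphate and switch it on. In cultured cells Pdk1 is a textbook target of the hypoxia-inducible factor HIF1, whereas Pdk4 is known for its induction by PPAR and FOXO factors during fasting. The arrays measured transcripts only, so neither the phosphorylation nor the activity of the complex was observed, and in bulk RNA fewer cells with a transcript and less of it per cell cannot be told apart.

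The sequences before the transcription starts of Pdk1, Pdk4 and Pdp2 are shown because these 3 genes changed by at least 0.5 on the log2 scale. Windows of 250 bases before each start were read from RefSeq's table for build GRCm38.p6, which held 12 windows for 9 of the 10 genes; Pdp1 is not among them. Capitals mark the motifs found. Pdk1 is shown from chr2:71872974-71873223 (plus strand), Pdk4 from chr6:5496279-5496528 (minus strand) and Pdp2 from chr8:104591222-104591471 (plus strand), each 5′ to 3′.
Pdk1: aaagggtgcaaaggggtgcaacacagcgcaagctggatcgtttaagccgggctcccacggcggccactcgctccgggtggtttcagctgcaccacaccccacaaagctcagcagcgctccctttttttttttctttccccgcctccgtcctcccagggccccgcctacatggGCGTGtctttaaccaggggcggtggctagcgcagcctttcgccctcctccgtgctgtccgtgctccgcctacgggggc
Pdk4: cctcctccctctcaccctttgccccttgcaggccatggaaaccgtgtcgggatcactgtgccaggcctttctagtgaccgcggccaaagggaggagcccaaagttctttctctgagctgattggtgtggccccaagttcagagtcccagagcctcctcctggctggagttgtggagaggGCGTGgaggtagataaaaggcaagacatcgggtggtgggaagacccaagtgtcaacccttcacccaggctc
Pdp2: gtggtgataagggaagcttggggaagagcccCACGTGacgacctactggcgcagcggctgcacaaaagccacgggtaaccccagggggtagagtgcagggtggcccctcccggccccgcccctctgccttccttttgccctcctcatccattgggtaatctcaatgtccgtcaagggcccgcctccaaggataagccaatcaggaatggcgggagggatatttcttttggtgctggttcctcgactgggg
The search covered both strands for ACGTG and GCGTG (the core of the hypoxia response element), CACGTG (the E-box, which contains ACGTG), TGATGNAA (an ATF4-type element), GTAAACA (a FOXO site), AGGTCA (a nuclear receptor half-site) and CGCANGCGC (an NRF1-type element). Pdk1 held 1 GCGTG, at position -78 from its start, and its other window held none of the motifs. Pdk4 also held 1 GCGTG, at -71, and Pdp2 held 1 CACGTG, at -219. GCGTG occurred in 7 of the 12 windows and in 28.2% of all 32851 windows of this kind, and ACGTG in 4 windows (Pdk2, Pdk3, Pdp2, Pdhb) and 16.6% of all. CACGTG was in 2 windows (Pdk2, Pdp2) and 6.02% of all, AGGTCA in 1 (Mpc1) and 14% of all, and CGCANGCGC in 1 (Pdha1) and 5.19% of all. TGATGNAA and GTAAACA, present in 3.45% and 3.17% of all windows, were in none of the 12. A match is a description of letters and not evidence of binding.

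RNA was hybridised to 10 Agilent two-colour arrays on 2 slides with 1 sample in each channel. Slide 1 held 2 carrier and 2 of the 6 h samples. All 24 h, 48 h and 72 h samples lay on slide 2, so slide was a term of the reported fit. Between 50.8% and 58.7% of spots were well above background in 18 of the samples, against 66.4% and 70.5% in a carrier and a 48 h sample that shared an array. All 8 fibroblast markers were above background in all 20 samples, whereas Ptprc, Cdh5, Krt8, Myog, Ckm, Adipoq and Plin1, which define other cell types, were so in none; Cd14, Csf1r, Itgam, Pecam1, Kdr, Tubb3, Snap25 and Map2 were so in all 20. The fibroblast markers moved with time: 3 of 8 fell at 6 h and 8 of 8 at 24 h, 48 h and 72 h. The log2 of their summed signal lay between 19.14 and 19.76 at 6 h, 19.21 and 19.50 at 24 h, 18.69 and 19.34 at 48 h and 19.23 and 19.50 at 72 h, against 19.4984 to 20.0015 in carrier cells. No tested marker of another cell type rose at any time; of the 4 leukocyte markers tested 0, 2, 1 and 2 fell at 6 h, 24 h, 48 h and 72 h, of 2 endothelial ones 0, 2, 0 and 1, and of 4 neural ones 0, 2, 1 and 2. No tested muscle (2) or adipocyte (1) marker fell, and no epithelial marker could be tested. The summed level of each of these other lists overlapped its carrier range at every time. All these sums, the fibroblast ones included, keep the dye and slide effects. Carrier samples lay on both slides and the 24 h, 48 h and 72 h samples on slide 2 alone, so overlap does not show unchanged levels. The part of these marker shifts in the results below was not tested.

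The kinase transcripts moved apart in actinonin. Pdk1 and Pdk4 rose, to 1.69-fold and 1.48-fold of carrier at 72 h, while Pdk3 fell at every time and was 1.39-fold lower at 48 h. The phosphatase transcript Pdp2 fell 1.52-fold by 48 h, the carrier subunit Mpc1 rose at 24 h, 48 h and 72 h, and Pdha1, the target of the kinases, did not pass the test at any time. A gene was called changed when limma's moderated test, adjusted by Benjamini-Hochberg over all 24250 transcripts, gave an adjusted p under 0.05. At 6 h 1 of the 10 genes was called higher (Pdk4) and 4 lower (Pdk1, Pdk2, Pdk3, Pdp1), where 13.7% of all transcripts were called higher and 11.1% lower. At 24 h 5 were higher (Pdk1, Pdk2, Pdk4, Pdhb, Mpc1) and 1 lower (Pdk3), against 21.2% and 19.1% of all transcripts. At 48 h 3 were higher (Pdk1, Pdk4, Mpc1) and 2 lower (Pdk3, Pdp2), against 21.5% and 20.3%, which is near that background. At 72 h 7 were higher (all but Pdk3, Pdp2 and Pdha1) and 2 lower (Pdk3, Pdp2), against 25.2% and 22.6%. The median log2 change of the 10 genes was -0.13, 0.19, 0.0061 and 0.27 at 6 h, 24 h, 48 h and 72 h, beside 0.00043, 0.0075, -0.00038 and -0.00089 over all transcripts.

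**Figure D1:**
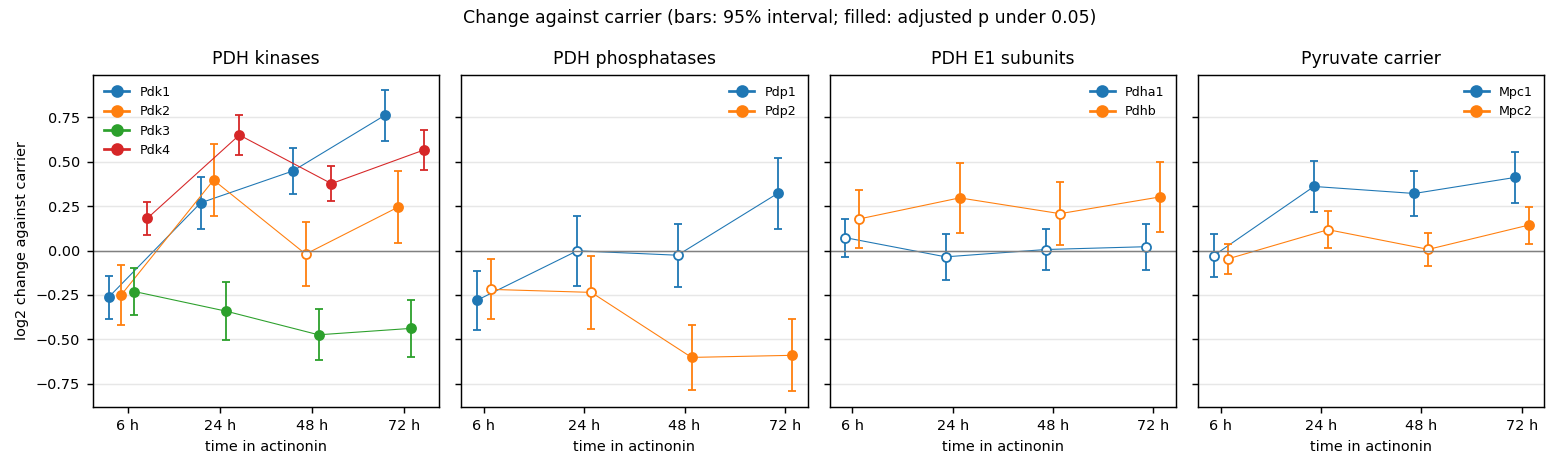
Log2 change against carrier (y axis) at 6 h, 24 h, 48 h and 72 h of actinonin (x axis) for the kinases, phosphatases, E1 subunits and carrier subunits; bars are 95% intervals and filled points have an adjusted p under 0.05. Pdk1 lay at -0.26 at 6 h and at 0.76 at 72 h, Pdk3 and Pdp2 lay below 0 at all times, and every Pdha1 interval included 0.

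Levels are given on the log2 scale of normalised signal after the fitted dye and slide effects were removed; since probes differ in brightness, levels of different genes are not compared. Pdk1, the kinase best known as a HIF1 target, measured 9.14, 9.14, 9.23 and 9.27 in the 6 h samples. At 24 h it measured 9.68, 9.70, 9.71 and 9.81, and at 48 h 9.77, 9.89, 9.92 and 10.03. At 72 h it measured 10.18, 10.19, 10.23 and 10.26, against 9.34, 9.46, 9.46 and 9.56 in carrier cells. All 6 h samples lay below every carrier sample and all 24 h, 48 h and 72 h samples above, with no overlap. The change against carrier was -0.26 ± 0.06 (SE) at 6 h (adjusted p = 0.00211), 0.27 ± 0.07 at 24 h (0.00433), 0.45 ± 0.06 at 48 h (9.51e-06) and 0.76 ± 0.07 at 72 h (5.57e-08). From the highest level down the order was 72 h, 48 h, 24 h, carrier and 6 h, and of these neighbours 48 h and 24 h did not pass the test (0.18 ± 0.06, adjusted p = 0.0716), while 72 h stood 0.31 ± 0.06 above 48 h (0.00145). The slide term of Pdk1 was 0.40, as large as some of these changes; on slide 2 alone the changes were -0.42, 0.19, 0.37 and 0.68, all called. The 6 h and 24 h calls were lost when arrays were only centred on their medians (adjusted p = 0.237 and 0.0724).

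Pdk4, the starvation-induced kinase, rose early. It measured 11.57, 11.59, 11.59 and 11.74 in the 6 h samples and 12.06, 12.08, 12.11 and 12.12 at 24 h. At 48 h it measured 11.79, 11.81, 11.83 and 11.85, and at 72 h 11.96, 11.98, 12.01 and 12.08, against 11.36, 11.46, 11.47 and 11.48 in carrier cells. Every actinonin sample lay above every carrier sample. The change against carrier was 0.18 ± 0.04 at 6 h (adjusted p = 0.00471), 0.65 ± 0.05 at 24 h (2.39e-08), 0.38 ± 0.05 at 48 h (3.06e-06) and 0.57 ± 0.05 at 72 h (7.86e-08). The course was not steady: Pdk4 at 48 h was 0.27 ± 0.05 below 24 h (adjusted p = 0.00139) and at 72 h it was 0.19 ± 0.05 above 48 h (0.00799). The order from the top was 24 h, 72 h, 48 h, 6 h and carrier, where only 24 h and 72 h, as neighbours, did not pass the test (adjusted p = 0.169). On slide 2 alone the 6 h change was 0.10 and not called (adjusted p = 0.179), and median centring ended the calls at 6 h and 48 h (0.33 and 0.162).

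Pdk3, a kinase isoform encoded on chromosome X, fell at every time. Its samples lay between 11.11 and 11.39 at 6 h, 11.06 and 11.18 at 24 h, 10.95 and 11.08 at 48 h and 11.01 and 11.08 at 72 h, against 11.33 to 11.64 in carrier cells. The 6 h samples overlapped the carrier range and the later ones did not. The change was -0.23 ± 0.06 at 6 h (adjusted p = 0.0124), -0.34 ± 0.08 at 24 h (0.00165), -0.47 ± 0.07 at 48 h (1.78e-05) and -0.44 ± 0.08 at 72 h (0.000124). The carrier level was the highest, and among the actinonin groups no neighbours in the order of levels (6 h, 24 h, 72 h, 48 h) passed the test, although 48 h was below 6 h (-0.24 ± 0.07, adjusted p = 0.00984), a call lost without 6 h 2_Cy5. The 6 h call was lost without the carrier 1_Cy3, carrier 2_Cy5 or 6 h 1_Cy5 sample (-0.19, -0.17 and -0.16, adjusted p = 0.0706, 0.0635 and 0.0918). Median centring ended the calls at 6 h and 24 h (adjusted p = 0.234 and 0.0514). Without scaling between arrays both of these calls were also lost (adjusted p = 0.0613 and 0.0595).

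Pdk2, the most widely expressed kinase in mammalian tissues, had a wide spread among carrier samples (SD 0.20 on the log2 scale). It lay between 7.78 and 7.94 at 6 h, 8.37 and 8.61 at 24 h, 7.999 and 8.218 at 48 h and 8.26 and 8.51 at 72 h, against 7.91 to 8.31 in carrier cells. Only the 24 h samples lay wholly outside the carrier range. Its change was -0.25 ± 0.08 at 6 h (adjusted p = 0.0304), 0.40 ± 0.10 at 24 h (0.00304), -0.02 ± 0.09 at 48 h (0.888) and 0.24 ± 0.10 at 72 h (0.0465). Like Pdk4, it was lower at 48 h than at 24 h (-0.42 ± 0.09, adjusted p = 0.00563) and higher at 72 h than at 48 h (0.26 ± 0.09, 0.038). The order was 24 h, 72 h, carrier, 48 h and 6 h, with 24 h and 72 h, and carrier and 48 h, not separated by the test. The step between 48 h and 6 h (0.23 ± 0.09, adjusted p = 0.0495) was called in 1 of 8 fits that left out 1 sample, the one without 48 h 1_Cy3. The 6 h call was lost in 5 of 8 fits that left out 1 sample (carrier 1_Cy3 and 2_Cy5, 6 h 1_Cy3, 2_Cy3 and 1_Cy5; -0.17, -0.19, -0.23, -0.24 and -0.26, adjusted p = 0.182, 0.131, 0.0761, 0.0728 and 0.0546). The 72 h call was lost in 4 of 8 (carrier 2_Cy3 and 1_Cy5, 72 h 1_Cy3 and 2_Cy5; 0.15, 0.20, 0.19 and 0.24, adjusted p = 0.289, 0.0807, 0.139 and 0.083) and on slide 2 alone (0.24, 0.0553). The 24 h call was lost without the slide term (0.26, adjusted p = 0.093), which was -0.32 for this probe.

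**Figure D2:**
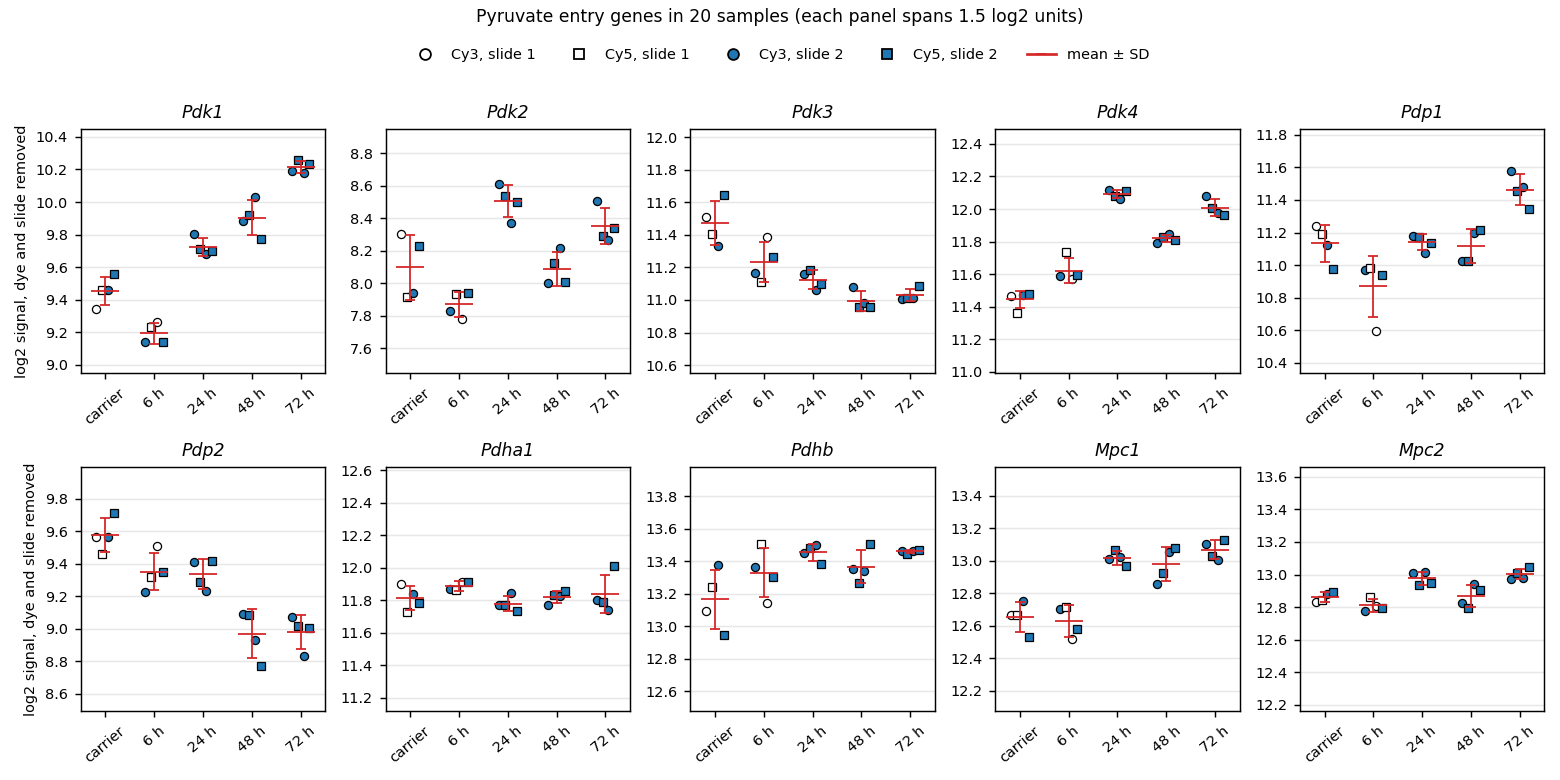
Log2 signal after removal of dye and slide effects (y axis) in each of the 20 samples by group (x axis), with the mean and SD of the 4 samples in red; circles are Cy3, squares Cy5, open symbols slide 1 and filled symbols slide 2. Pdk1 at 72 h (10.18 to 10.26) and Pdp2 at 48 h (8.77 to 9.09) lie wholly outside their carrier ranges (9.34 to 9.56 and 9.46 to 9.71), whereas the groups of Pdha1 overlap the carrier range.

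The phosphatases went opposite ways at 72 h. Pdp2 measured 9.23, 9.32, 9.35 and 9.51 in the 6 h samples and 9.23, 9.29, 9.41 and 9.42 at 24 h. At 48 h it measured 8.77, 8.93, 9.09 and 9.09, and at 72 h 8.83, 9.01, 9.02 and 9.07, against 9.46, 9.56, 9.57 and 9.71 in carrier cells. The 48 h and 72 h samples lay below all carrier, 6 h and 24 h samples. The change was -0.60 ± 0.09 at 48 h (adjusted p = 1.56e-05) and -0.59 ± 0.10 at 72 h (6e-05). At 6 h and 24 h it was -0.22 ± 0.08 and -0.24 ± 0.10 and missed the threshold (0.0553 and 0.0611), although all 4 samples of each lay below the carrier mean, and slide 2 alone gave -0.37 and -0.31 (0.0266 and 0.0191). Pdp2 at 48 h was also below 24 h (-0.37 ± 0.09, adjusted p = 0.0119), and 72 h did not differ from 48 h beyond the spread (0.01 ± 0.09, 0.945). The second Pdp2 probe was well above background in 4 of 20 samples and was not called at any time (-0.14 at 72 h, adjusted p = 0.185).

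Pdp1, the calcium-sensitive phosphatase, was called lower at 6 h and higher at 72 h. Its samples lay between 10.59 and 10.98 at 6 h, 11.07 and 11.18 at 24 h, 11.02 and 11.22 at 48 h and 11.34 and 11.58 at 72 h, against 10.98 to 11.24 in carrier cells. The 72 h samples stood above all others and the 6 h samples overlapped the carrier range. The change was -0.28 ± 0.08 at 6 h (adjusted p = 0.013) and 0.32 ± 0.09 at 72 h (0.00874), and -0.0014 ± 0.094 and -0.03 ± 0.08 at 24 h and 48 h. The order was 72 h, 24 h, carrier, 48 h and 6 h, in which the brightest probe was called for 72 h against 24 h (0.32 ± 0.07, adjusted p = 0.00467) and 48 h against 6 h (0.25 ± 0.08, 0.0258). Neither step was called on the other 2 probes (0.05 and 0.13 for 72 h against 24 h, adjusted p = 0.672 and 0.157; 0.09 and -0.04 for 48 h against 6 h, 0.41 and 0.718), and the 48 h step was lost without 48 h 2_Cy3 or 2_Cy5. Of the 3 Pdp1 probes all rose at 72 h (0.32, 0.39 and 0.23), but the 6 h fall was called on the brightest alone (the others -0.03 and -0.13, adjusted p = 0.837 and 0.202), and one of the others rose at 24 h (0.33, 0.00518). The 6 h call was lost without the 6 h 2_Cy3, carrier 1_Cy3 or carrier 1_Cy5 sample (-0.14, -0.25 and -0.22; adjusted p = 0.0846, 0.0556 and 0.0704) and on slide 2 alone (-0.09, 0.448). The 72 h call was lost without carrier 2_Cy5 (0.23, 0.0847) and without the slide term (0.06, 0.819), which was -0.65 for this probe, and was kept on slide 2 alone (0.41, 0.000146).

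Of the E1 subunits Pdhb was called higher at 24 h and 72 h and Pdha1 at no time; the difference between them was not tested. Pdha1, whose protein carries the phosphorylated serines, averaged 11.89 ± 0.03 at 6 h, 11.78 ± 0.05 at 24 h, 11.82 ± 0.04 at 48 h and 11.84 ± 0.12 at 72 h, against 11.81 ± 0.07 in carrier cells (SD, n = 4 each). Its changes lay between -0.04 and 0.07, with 95% intervals of -0.03 to 0.18 at 6 h, -0.16 to 0.09 at 24 h, -0.11 to 0.12 at 48 h and -0.11 to 0.15 at 72 h. Pdhb, the beta subunit, lay between 13.15 and 13.51 at 6 h, 13.38 and 13.50 at 24 h, 13.27 and 13.51 at 48 h and 13.44 and 13.47 at 72 h, against 12.95 to 13.37 in carrier cells. It rose by 0.30 ± 0.09 at 24 h (adjusted p = 0.0178) and 0.30 ± 0.09 at 72 h (0.0132), with 0.18 ± 0.08 at 6 h (0.114) and 0.21 ± 0.08 at 48 h (0.0566) not called. The second Pdhb probe was called higher at 24 h, 48 h and 72 h (0.34, 0.24 and 0.32). Both calls of the brighter probe were lost without the carrier 2_Cy5 sample, the lowest carrier value (0.17 and 0.17, adjusted p = 0.192 and 0.156).

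Both subunits of the pyruvate carrier were higher at 72 h. Mpc1 lay between 12.52 and 12.72 at 6 h, 12.97 and 13.07 at 24 h, 12.86 and 13.08 at 48 h and 13.01 and 13.13 at 72 h, against 12.53 to 12.75 in carrier cells. The 6 h samples filled the carrier range and the later ones lay above it. The change was -0.03 ± 0.06 at 6 h (adjusted p = 0.792), 0.36 ± 0.07 at 24 h (0.000375), 0.32 ± 0.06 at 48 h (0.000302) and 0.41 ± 0.07 at 72 h (7.25e-05), and the second Mpc1 probe gave -0.03, 0.38, 0.27 and 0.41. On the brighter probe no neighbours among 24 h, 48 h and 72 h passed the test, whereas the second was called higher at 72 h than at 48 h (0.14, adjusted p = 0.0359). Median centring ended the Mpc1 calls at 48 h and 72 h (adjusted p = 0.343 and 0.0754). Mpc2 lay between 12.77 and 12.86 at 6 h, 12.94 and 13.02 at 24 h, 12.80 and 12.94 at 48 h and 12.97 and 13.05 at 72 h, against 12.83 to 12.90 in carrier cells. Its only call against carrier was a rise of 0.14 ± 0.05 at 72 h (adjusted p = 0.0232), 1.104-fold, which was lost without the 72 h 2_Cy5 sample (0.13, 0.0578) and on slide 2 alone (0.11, 0.0743). The 24 h samples also lay wholly above the carrier samples without passing the test (0.12 ± 0.05, adjusted p = 0.0678).

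Between successive times, higher at 24 h than at 6 h were 6 of the 10 genes (Pdk1, Pdk2, Pdk4, Pdp1, Mpc1, Mpc2) and none was lower, against 16.4% of all transcripts in each direction. The differences were 0.53 for Pdk1, 0.64 for Pdk2, 0.47 for Pdk4, 0.28 for Pdp1, 0.39 for Mpc1 and 0.16 for Mpc2. The Pdp1 call was lost without 24 h 1_Cy3, 1_Cy5 or 2_Cy5 and dropped to 0.03 without the slide term (adjusted p = 0.931), and the Mpc2 call was lost without 6 h 1_Cy3 or 2_Cy5. At 48 h against 24 h none was higher and 3 were lower (Pdk2, Pdk4, Pdp2), against 5.77% and 6.36% of all transcripts. At 72 h against 48 h 5 were higher (Pdk1, Pdk2, Pdk4, Pdp1, Mpc2) and none lower, against 12.9% and 10.3%. The Mpc2 call at 72 h against 48 h was lost without any 1 of 6 samples (48 h 1_Cy3 or 1_Cy5, or any of the 72 h samples), and that of Pdk2 without any 1 of 4 (48 h 1_Cy3 or 2_Cy5, 72 h 1_Cy3 or 2_Cy5). At 72 h against 24 h 2 were higher (Pdk1, Pdp1) and 1 lower (Pdp2), against 10.5% and 9.89%. At 48 h against 6 h 5 were higher and 2 lower, against 15.8% and 17.9%, and at 72 h against 6 h 6 were higher and 2 lower, against 21.5% and 21.2%. At 72 h against 6 h the Pdk3 call (-0.21, adjusted p = 0.0372) held in 3 of 8 fits that left out 1 sample and was lost without any 1 of 6 h 2_Cy3, 6 h 2_Cy5, 72 h 1_Cy3, 72 h 2_Cy3 or 72 h 1_Cy5. These comparisons share samples with those against carrier.

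Some pairs of groups shared arrays, which gave ratios free of differences between arrays. On the 4 arrays with a 72 h and a 24 h sample, the log2 ratio of Pdk1 lay between 0.44 and 0.60, of Pdp1 between 0.21 and 0.46 and of Pdp2 between -0.51 and -0.14, the same sign on each array. On the 2 arrays with a 48 h and a 6 h sample, Pdk1 stood at 0.82 and 0.85. Mpc1 stood at 0.27 and 0.42 and Pdp2 at -0.34 and -0.22. Pdp1, called higher at 48 h than at 6 h, gave -0.005 and 0.32 (0.06 and 0.26 with the fitted dye term removed). With 48 h and carrier on 1 array, Pdk1 gave 0.29 and 0.35, Pdk4 0.27 and 0.39, Pdk3 -0.56 and -0.38 and Pdp2 -0.86 and -0.54. With 6 h and carrier, Pdk4 gave 0.20 and 0.28, Pdp1 -0.54 and -0.32, Pdk2 -0.30 and -0.20, Pdk1 -0.23 and -0.07 and Pdk3 -0.40 and -0.01, the last near 0 on 1 array, whereas Mpc1 (-0.34 and 0.25), Pdhb (-0.21 and 0.53) and Pdp2 (-0.32 and 0.12) changed sign between the arrays. These arrays carry the dyes in opposite orientation and the ratios keep the dye effect; with the fitted dye term removed Mpc1 gave -0.14 and 0.05, Pdhb -0.09 and 0.41 and Pdp2 -0.25 and 0.05. These ratios hold no replicate test.

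**Figure D3:**
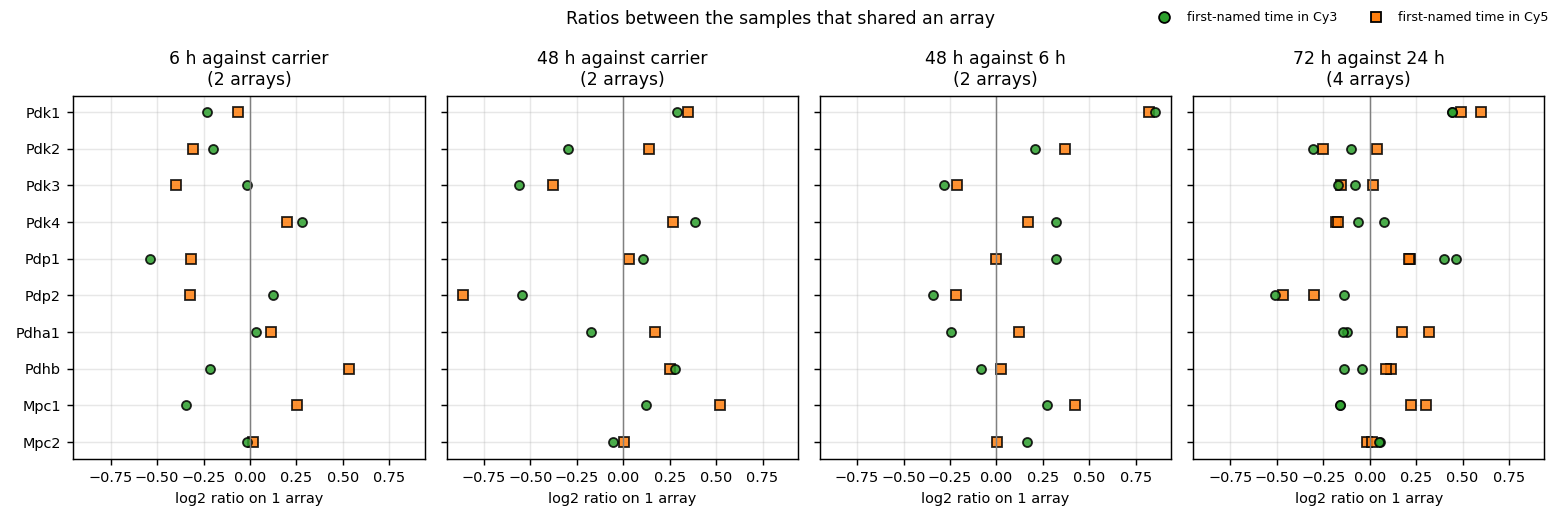
Log2 ratio of normalised signal between both samples of an array (x axis) for each gene (y axis) in the 4 pairs of groups that shared arrays; each point is 1 array, green circles with the first-named time in Cy3 and orange squares in Cy5. Pdk1 lies at 0.82 and 0.85 for 48 h against 6 h and Pdp2 below 0 on every 72 h against 24 h array (-0.51 to -0.14), while Mpc1 at 6 h gave -0.34 and 0.25.

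The 6 h comparison could be made within each slide. On slide 1, with 2 samples a group, the changes were -0.15 for Pdk1, -0.25 for Pdk2, -0.21 for Pdk3, 0.24 for Pdk4 -0.43 for Pdp1 and -0.10 for Pdp2, and none passed the test, which had a single residual degree of freedom. On slide 2, in the same order, they were -0.42, -0.26, -0.26, 0.10, -0.09 and -0.37, of which Pdk1, Pdk3 and Pdp2 were called (adjusted p = 0.000747, 0.0283 and 0.0266). The difference between slides in the 6 h change was tested as an interaction and passed for none of the 10 genes (lowest adjusted p = 0.96) and for 7 transcripts in all. The 24 h, 48 h and 72 h samples lay on slide 2 alone.

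Across the 20 samples the genes fell into a few patterns, given as descriptions because the samples share groups and arrays. Pdk4 and Mpc1 ran together (Pearson r = 0.86), as did Pdk1 and Mpc1 (0.82) and Pdk3 and Pdp2 (0.87), and Pdk3 ran against Pdhb and Mpc1 (-0.80 and -0.80). The r of Pdha1 with the others lay between -0.30 and 0.08. Among named genes, those most like Pdk1 were Aldoa, a glycolytic aldolase (r = 0.97), Dennd2a (0.96) and Calml4 (0.96); at 72 h they changed by 0.36, 0.42 and 1.23. Most like Pdk4 were Cnnm2, Glmn and Rufy2 (0.98 each), which changed by 0.98, 0.48 and 0.48 at 24 h. Most like Pdp2 were Ptger4, a prostaglandin E2 receptor, Tspan5, a tetraspanin, and Plpp3, a lipid phosphatase (0.94 each), at -1.06, -0.60 and -1.12 at 48 h.

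The other subunits of the complex changed by less than 0.5 on the log2 scale. Of the 3 other subunit genes tested, 1, 0, 2 and 2 rose at 6 h, 24 h, 48 h and 72 h and none fell, with median changes of 0.14, 0.15, 0.18 and 0.22. Of all transcripts 13.7%, 21.2%, 21.5% and 25.2% rose at these times and 11.1%, 19.1%, 20.3% and 22.6% fell. The same shares apply to the lists below. Pdhx, the binding protein for E3, rose by 0.38 ± 0.07 at 72 h (adjusted p = 0.000255), Dld, the E3 subunit, by 0.22 ± 0.05 (0.00188), and Dlat, the E2 subunit, by 0.19 ± 0.06 at 48 h (0.0158), a call lost without carrier 2_Cy3 or carrier 2_Cy5 (adjusted p of Dlat = 0.0685 and 0.101). Pdhx was also called at 48 h (0.18, adjusted p = 0.0321), a call that held in 15 of 26 alternatives. Of 5 tested genes for the cofactors of the complex, 1 rose at 6 h (Lias, the lipoyl synthase, 0.32 ± 0.04), none changed at 24 h, and 1 fell at 48 h (Slc19a2, a thiamine transporter, -0.24 ± 0.07). The Slc19a2 call was lost without carrier 2_Cy3, 48 h 2_Cy5 or the array they shared, without the slide term and under median centring. At 72 h 1 rose and 1 fell, near the shares of all transcripts. The median changes of this list were 0.11, 0.05, -0.0035 and -0.07.

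Genes of the related branched-chain ketoacid dehydrogenase complex were more often higher than lower. Of its 5 genes 3, 4, 3 and 4 were called higher at 6 h, 24 h, 48 h and 72 h, with 1 lower at 6 h and medians of 0.21, 0.47, 0.23 and 0.43. Bckdhb, its E1 beta subunit, was 0.92 ± 0.06 above carrier at 72 h (adjusted p = 1.62e-09) and Dbt, its E2 subunit, 0.61 ± 0.07 (7.96e-07). Bckdha, its E1 alpha subunit, stood 0.39 ± 0.08 above carrier (0.000541), and Ppm1k, its phosphatase, 0.43 ± 0.09 (0.000805). The difference from the pyruvate dehydrogenase complex was not tested.

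Genes for the supply and other fates of pyruvate split. Of 15 tested, 4, 5, 4 and 6 rose and 3, 6, 5 and 4 fell at 6 h, 24 h, 48 h and 72 h, with medians of -0.08, -0.10, -0.08 and -0.05. Gpt2, the mitochondrial enzyme that turns pyruvate to alanine, was higher by 1.26 ± 0.07 at 6 h and 1.42 ± 0.08 at 48 h (adjusted p = 1.87e-09 and 1.36e-10). Me3, the mitochondrial NADP malic enzyme, was higher by 0.70 ± 0.08 at 72 h (9.91e-07). Pkm, a pyruvate kinase, changed by -0.54 ± 0.06 at 48 h (1.77e-06), and Slc16a3, a lactate exporter, changed by -0.64 ± 0.08 at 24 h (7.12e-06).

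The listed HIF1 targets other than Pdk1, a list that does not hold all such genes, were mixed at 6 h and mostly higher later. Of 11 tested, 4 rose and 5 fell at 6 h, and 7, 8 and 8 rose while 1 fell at 24 h, 48 h and 72 h, with medians of -0.10, 0.36, 0.42 and 0.57. Bnip3, a mitophagy receptor, had the sign change of Pdk1, at -0.42 ± 0.07 at 6 h (adjusted p = 0.000132) and 0.90 ± 0.08 at 72 h (4.46e-08). Ndrg1 and Ero1a (an oxidase of the endoplasmic reticulum) were already higher at 6 h (0.84 ± 0.06 and 1.14 ± 0.08) and reached 1.90 and 1.77 at 72 h. Car9, a carbonic anhydrase, was 1.0995 ± 0.1016 above carrier at 72 h. Genes named elsewhere here that are also known as HIF1 targets, but were not counted in this list, went both ways. At 72 h Aldoa changed by 0.36, whereas Pkm, Slc16a3 and Angptl4 changed by -0.46, -0.30 and -1.67. The counts of this list therefore depend on how genes were sorted into lists.

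PPAR and FOXO targets other than Pdk4 were more often lower than higher. Of 11 tested, 2, 3, 3 and 3 rose and 6, 5, 8 and 6 fell at 6 h, 24 h, 48 h and 72 h, with medians of -0.24, -0.13, -0.34 and -0.25. Angptl4, a lipase inhibitor, changed by -1.67 ± 0.08 at 72 h (adjusted p = 3.06e-11), Ucp2 by -1.13 ± 0.08 (2.9e-09) and Ucp3 by -1.004 ± 0.071 (2.29e-09), both uncoupling proteins. Acot2, a mitochondrial acyl-CoA thioesterase, went the other way, at 2.51 ± 0.16 (4.87e-10). These lists were drawn up with earlier results of these data known. Their counts were not tested against the shares of all transcripts given above, and some lie near those shares.

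**Figure D4:**
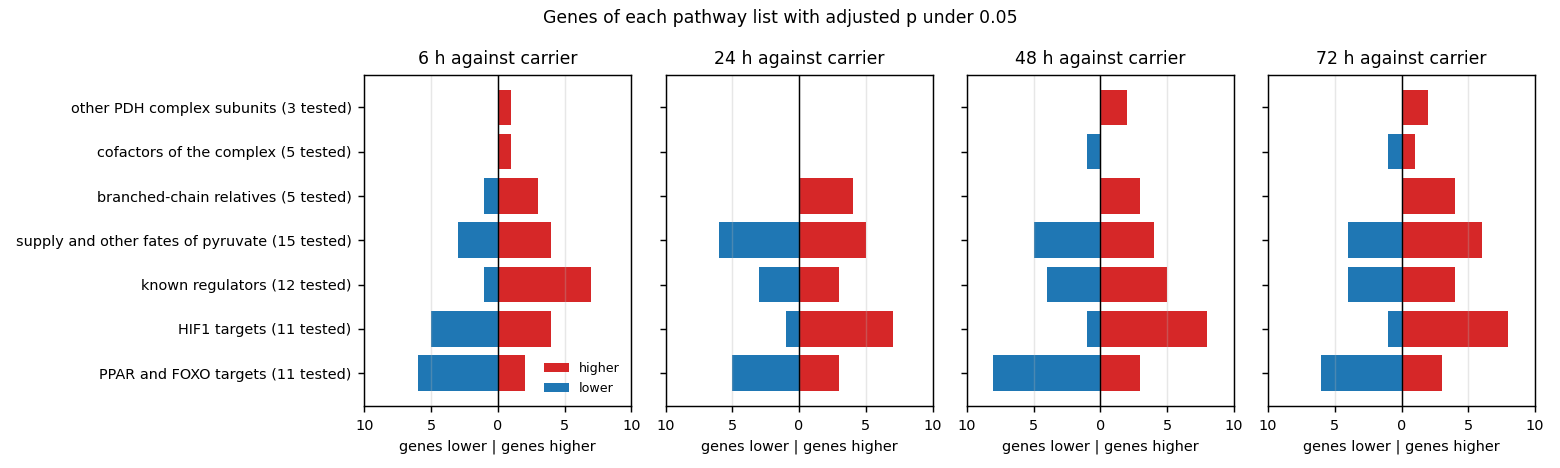
Number of genes of each list called lower (blue, left) and higher (red, right) against carrier at each time; the number tested stands beside each list. HIF1 targets had 4 higher and 5 lower at 6 h and 8 higher and 1 lower at 72 h, and PPAR and FOXO targets had 8 of 11 lower at 48 h.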

How the data were processed

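Total RNA of 20 samples (5 groups of 4, each pooled from 4 plates) was measured on 10 two-colour Agilent arrays, 1 sample per channel. The labels call the 4 samples independent without saying how cultures were started, so a p-value here reflects spread among samples that may be technical. The authors' deposited intensity values are the unnormalized median brightness of each spot and its surroundings, with marks for detection, saturation and outliers. These were written by Agilent Feature Extraction 10.7.3.1 (slide 1) and 11.0.1.1 (slide 2) per the file headers, so slide, scan and software cannot be told apart. The authors' deposited matrix of log2 values was used as an alternative; R 2.15 and limma are named in the submitters' processing notes. For arrays the number of samples limits the precision.

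Background was corrected by normexp (offset 50), followed by loess within arrays and Aquantile between arrays; control and outlier spots were left out. Spots of a probe were averaged, probes detected (well above background) in 4 or more samples kept, and the brightest probe of a gene used. Of 22232 RefSeq accessions on the array 20869 matched a symbol. limma 3.58.1 (R 4.3.3) fitted group, dye and slide with array as a random block (correlation 0.25), with Benjamini-Hochberg adjustment over 24250 transcripts, of which 14242 were named. The 10 genes had 15 probes, and the brightest of each gene was unsaturated and above background in all 20 samples. The fit was tested on simulated data.

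The genes, the pathway and marker lists and the tests were chosen with earlier results of these data known. All 10 genes are named; values of every sample are given for those called with a change of at least 0.5 at any time. Also named are up to 4 called genes of smallest adjusted p per pathway list, and the 3 most alike genes by Pearson r; some genes of the cofactor list are not reported here. The alternatives were other background corrections, scalings, filters, probe rules, the deposited matrix, other terms and blocks, single slides and left-out samples or arrays.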

Additional observations from a re-analysis of the deposited data

Results flagged for a closer look

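Pdk1, Pdk2 and Pdp1 were called lower than carrier at 6 h and higher at a later time, and the test of the difference between the times passed. That test does not compare 6 h with carrier. Each 6 h call was lost under some alternatives, and that of Pdp1 was made on its brightest probe alone. The 72 h call of Pdk2 held in 10 of 26 alternatives. Pdk1 differed by 0.53 between 24 h and 6 h (adjusted p = 1.1e-05), by 0.71 between 48 h and 6 h (8.53e-08) and by 1.02 between 72 h and 6 h (2.01e-09), with every sample of the later time above every 6 h sample. Pdk2 differed by 0.64 between 24 h and 6 h (5.3e-05) and by 0.49 between 72 h and 6 h (0.000449). Pdp1 differed by 0.60 between 72 h and 6 h (4.73e-05), a call lost without the slide term (adjusted p = 0.098).

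In 4 of 50 groups of 4 samples 1 sample stood far from the other 3, where chance gives about 1 in 20. Pdk3 at 72 h had 1 Cy5 sample at 11.08 and the others between 11.008 and 11.013. Pdk4 had a carrier Cy5 sample of slide 1 at 11.36 with the others between 11.46 and 11.48, and a 6 h Cy5 sample of slide 1 at 11.74 with the others between 11.57 and 11.59. Pdp1 at 6 h had a Cy3 sample of slide 1 at 10.59 with the others between 10.94 and 10.98; it shared an array with that carrier sample. Without it the 6 h change of Pdp1 was -0.14 and not called.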

How the results depend on the processing

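No called change reversed its sign under any alternative. Of the 25 calls against carrier, 9 held under every alternative (Pdk4 and Mpc1 at 24 h; Pdk1, Pdk3 and Pdp2 at 48 h; Pdk1, Pdk3, Pdk4 and Pdp2 at 72 h), 4 were lost under median centring alone (Pdk1 at 24 h, Pdk4 and Mpc1 at 48 h, Mpc1 at 72 h), and 12, including all 5 at 6 h, under others too. Over all 10 comparisons, 887 of 1031 checks of called changes kept the call with all samples or a slide or array left out, and 407 of 456 with 1 sample left out; changes not called became called in 24 of 779 and 11 of 344. For the genes of the pathway lists and the most alike genes, 65 of 116 calls held throughout and none reversed. Median centring of arrays in place of loess lowered the counts to 1415, 4343, 2813 and 6392 transcripts and 0, 3, 3 and 4 of the 10 genes at 6 h, 24 h, 48 h and 72 h against carrier, where the reported fit called 6023, 9766, 10126 and 11578 transcripts. Between times it called 2542, 216 and 896 transcripts and 3, 0 and 0 genes at 24 h against 6 h, 48 h against 24 h and 72 h against 48 h (7963, 2941 and 5624 in the reported fit). With it 1017 transcripts rose and 398 fell at 6 h, against 3324 and 2699. Without scaling between arrays 6116 were called at 24 h against carrier (3513 higher, 2603 lower), 4434 at 24 h against 6 h, 339 with 0 genes at 48 h against 24 h (95 higher, 244 lower), and 1784 with 1 gene at 72 h against 48 h (1244 higher, 540 lower); median centring gave 44 higher and 172 lower at 48 h against 24 h and 562 and 334 at 72 h against 48 h. Without the slide term the counts were 5275 at 24 h against 6 h, 846 with 1 gene at 48 h against 24 h and 2654 with 2 genes at 72 h against 48 h; without the dye term 1784 at 48 h against 24 h and 3 genes at 72 h against 48 h, as without the filter on dim probes. At 6 h slide 2 alone called 3 genes, slide 1 alone 29 transcripts and 0 genes, and a fit of only the groups compared 2745 transcripts and 1 gene. Leaving out the array of the second Cy5 carrier sample left 3 genes at 6 h and 3 at 72 h against 48 h; leaving out the array that stood apart, an alternative added after seeing the data, as were those for the further pairs of times and for genes outside the 10, moved none of the counts past 1.5 times. With 1 sample left out, between 2 and 6 genes were called at 6 h, between 3 and 5 at 72 h against 48 h, and between 1781 and 2370 transcripts at 48 h against 24 h (2941 with all samples); the lone samples left on a slide were assumed to vary like the others. Deviations from the fit were correlated between samples of different groups. For pairs of the same number and dye 1 of 40 correlations was over 0.1 (mean -0.08), against 20 of 110 for other pairs (mean -0.009). The deviations were taken after group, dye and slide were fitted, which constrains them, so these values cannot show that pairing is absent. Pairs that shared an array were left out, and same-numbered samples in opposite dyes were not looked at apart. Whether the numbers pair samples was therefore not settled. A fit with the replicate block called 6227, 9365, 10153 and 11317 transcripts and 5, 6, 5 and 9 genes at the 4 times. Under the other background corrections and scalings, the median log2 change over all transcripts was at most 0.039 in size in any counted comparison. Signals near background, as of the second Pdp2 probe, limit what could be measured. The cause of these differences was not tested.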

Other observations

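The list of known regulators held factors for Pdk transcription and enzymes that act on acyl groups of the pyruvate dehydrogenase complex. Of the latter, the mitochondrial sirtuins Sirt3, Sirt4 and Sirt5 were called higher than carrier at every time. At 24 h and 48 h the changes were 0.75 and 0.88 for Sirt5, 0.48 and 0.53 for Sirt3 and 0.44 and 0.49 for Sirt4. Of 12 regulators tested, 7, 3, 5 and 4 were higher than carrier at 6 h, 24 h, 48 h and 72 h, where 13.7%, 21.2%, 21.5% and 25.2% of all transcripts were, and 1, 3, 4 and 4 were lower, where 11.1%, 19.1%, 20.3% and 22.6% of all were. The counts at 24 h are near that background. The list had medians of 0.17, 0.03, 0.06 and 0.03. Sirt5, a lysine desuccinylase, was 0.25 ± 0.05 above carrier at 6 h and 0.94 ± 0.07 at 72 h (adjusted p = 0.0023 and 1.94e-09). Sirt3, the main deacetylase of mitochondria, was 0.34 ± 0.07 and 0.57 ± 0.08 above carrier at these times (0.000994 and 1.29e-05), and Sirt4, known to act on the lipoyl groups of the pyruvate dehydrogenase complex, 0.18 ± 0.06 and 0.42 ± 0.07 (0.0283 and 6.51e-05). The 6 h call of Sirt4 held in 14 of 27 alternatives and was lost without carrier 1_Cy3, carrier 2_Cy5, 6 h 2_Cy3 or 6 h 2_Cy5, on either slide alone, without the dye term and with the mean of its probes (0.10, adjusted p = 0.198). The 6 h calls of Sirt3 and Sirt5 were lost under median centring and on slide 1 alone. That of Sirt5 was also lost in a fit of only the groups compared. The 24 h call of Sirt3 was lost without the slide term, and the 48 h calls of Sirt3 and Sirt4 under median centring. Pparg, a nuclear receptor, was 0.41 ± 0.05 above carrier at 6 h (1.39e-05) and changed by -0.40 ± 0.06 at 72 h (3.83e-05).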
